A study of Mus musculus with 12 samples.

Results

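The amino acid response genes of mouse embryonic fibroblast lines were followed across cell density and across loss of focal adhesion kinase (FAK), a tyrosine kinase at the sites where integrins hold a cell to its matrix. The set holds 49 genes named for ATF4, amino acid supply and tRNA charging, found on the array by their RefSeq identifiers. Of these, 48 had a probe and were tested, among 12438 genes tested of 17016 with a named probe. Pycr1, a proline synthesis enzyme, was matched to no probe by its RefSeq identifier and its expression is not analysed here. Messenger RNA was measured on 12 one-colour Agilent arrays, 1 per culture, with 3 cultures in each of 4 groups, set up on 3 experimental days. FAK knockout (KO) cells were grown in DMEM with Glutamax and 10% serum. Rescue cells are 1 clone, DA2, of FAK-deficient cells given FAK back. They were grown in the same base medium and serum with non-essential amino acids and 135 µg/ml hygromycin B added. Cells of each line were seeded densely at 8200000 per 10 cm dish or sparsely at 410000 and harvested after 24 h. Clone, FAK status, selection drug and amino acid supplement change together between the lines and cannot be told apart. Dense and sparse cultures of 1 line share their medium recipe.

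When amino acids run short, uncharged tRNAs activate the kinase GCN2, which phosphorylates the initiation factor eIF2. General protein synthesis then slows while the messenger RNA of the transcription factor ATF4 is translated better, so ATF4 activity is set to a large extent at the level of protein, which the arrays did not measure. With partners of the C/EBP family, ATF4 binds composite C/EBP-ATF elements and induces genes for amino acid synthesis, amino acid uptake and the aminoacyl-tRNA synthetases that load tRNAs with amino acids. Stress of the endoplasmic reticulum reaches the same genes through the kinase PERK.

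The letters of the C/EBP-ATF element can be read in the promoters of many of these genes. The motif TGATGNAA, read on both strands as itself or as TTNCATCA, was searched in windows from 250 bases before to 50 bases after each gene's start in the RefSeq promoter table for GRCm38.p6. Of the 49 genes, 39 had a promoter there and 15 of them (38.5%) held the motif, against 1219 of all 27025 promoters (4.51%) and 273 of the 9937 promoters that belong to tested genes (2.75%). The 15 were Atf3, Nupr1, Chac1, Trib3, Fgf21, Vldlr, Asns, Pycr1, Slc7a11, Slc1a4, Aars, Gars, Iars, Tars and Yars, with 2 matches each in Slc7a11 and Aars. A match in letters is a description of the window, and binding was not measured. The windows shown here, of 60 bases each, 5′ to 3′ on the gene's strand with the motif in capitals, belong to 5 genes that fell in dense rescue cells, to Aars, which passed no test, and to Nupr1 and Vldlr, which rose there.
Asns, asparagine synthetase, chr6:7693210-7693269, minus strand: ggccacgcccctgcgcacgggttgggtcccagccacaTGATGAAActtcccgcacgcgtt
Slc7a11, cystine importer, chr3:50443637-50443696, minus strand: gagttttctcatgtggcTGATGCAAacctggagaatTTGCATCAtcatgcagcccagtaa
Chac1, glutathione-degrading enzyme, chr2:119351023-119351082, plus strand: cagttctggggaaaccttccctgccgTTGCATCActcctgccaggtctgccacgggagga
Fgf21, metabolic hormone, chr7:45615596-45615655, minus strand: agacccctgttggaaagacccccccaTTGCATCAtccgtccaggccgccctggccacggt
Gars, glycyl-tRNA synthetase, chr6:55037941-55038000, plus strand: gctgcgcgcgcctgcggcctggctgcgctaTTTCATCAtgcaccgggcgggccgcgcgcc
Aars, alanyl-tRNA synthetase, chr8:111033704-111033763, plus strand: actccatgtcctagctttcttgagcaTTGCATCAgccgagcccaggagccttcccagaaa
Nupr1, stress-induced chromatin protein, chr7:126625547-126625606, minus strand: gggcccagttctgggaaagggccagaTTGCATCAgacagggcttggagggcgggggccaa
Vldlr, lipoprotein receptor, chr19:27216794-27216853, plus strand: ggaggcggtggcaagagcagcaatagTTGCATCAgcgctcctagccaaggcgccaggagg

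Levels are given as log2 of the scanner's processed signal minus the array's 75th percentile, so a level of 0 equals that percentile and each log2 unit is one doubling. They describe 1 probe per gene, the brightest, and are compared only within a gene. Of the 48 genes, 19 had several usable probes, and 0 of these had probes called in opposite directions. All probes of a gene shared a sign for 9 of the 19 with density in KO cells and for 19 in rescue cells. Between lines they did so for 17 in dense and 15 in sparse cultures. The 75th percentile lay between 294 and 1594 intensity units, 23152 to 26183 of 41174 probes were well above background on an array, and replicates correlated at r = 0.982 to 0.992. In the authors' deposited value table the day 3 columns follow the scanner files of the other line, so results start from the scanner files, and that table is used only as an alternative with and without day 3. Of the 2 probes for Ptk2, the gene of FAK, 1 overlapped in all groups at levels of 0.03 to 0.50, while the other lay at -1.88 to -1.33 in dense KO and -1.76 to -1.10 in sparse KO cultures, against -0.97 to -0.17 in dense rescue and 0.23 to 1.24 in sparse rescue cultures. Where these probes lie relative to the deleted part is not given in the sources used here. The fibroblast label was checked against 14 markers: 11 were above background in dense KO, 10 in sparse KO, 12 in dense rescue and 11 in sparse rescue cultures, with Fap above background in no group, Twist2 in neither KO group, Lum in dense rescue cultures alone and Thy1 in dense KO cultures alone. Over the 12 that were tested, the mean level per array was lower in KO cells, at 1.39 to 1.65 in dense and 1.28 to 1.44 in sparse cultures. In rescue cells it was 4.43 to 4.90 in dense and 3.43 to 3.54 in sparse cultures. All of 10 mesothelial markers were above background in both KO groups, with a mean level per array of 3.34 to 3.50 in dense and 3.13 to 3.28 in sparse cultures, against 4 of 10 at -4.80 to -4.48 in dense rescue and 6 of 10 at -4.07 to -3.61 in sparse rescue cultures. The defining mesothelial markers Wt1 and Upk3b were not above background in rescue cells. These markers move with every KO to rescue difference below, and their part in those differences was not tested. In bulk samples, fewer cells of a type and less RNA per cell cannot be told apart.

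Dense rescue cultures stood apart from the other 3 groups. Of the 48 genes, 36 (75%) had their lowest group mean there, against 4550 of all 12438 genes (36.6%). Only 4 (8.33%) had their highest mean there, against 30.1% of all genes. The median over the 48 genes of the level minus the gene's own mean was -0.83 to -0.65 on the 3 dense rescue arrays. It was 0.16 to 0.31 on dense KO, 0.10 to 0.22 on sparse KO and 0.26 to 0.46 on sparse rescue arrays, so these 3 groups lay within a range that the dense rescue arrays did not reach. Within groups the genes varied about as much as other genes, with a median SD over 3 cultures of 0.22 in dense KO, 0.17 in sparse KO, 0.24 in dense rescue and 0.28 in sparse rescue cultures (all genes, 0.24, 0.20, 0.27 and 0.30). Largest in each group was the SD of Slc7a11 in dense KO (1.12), Slc7a3 in sparse KO (1.02), Fgf21 in dense rescue (0.95) and Cbs in sparse rescue cultures (0.84).

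**Figure D1:**
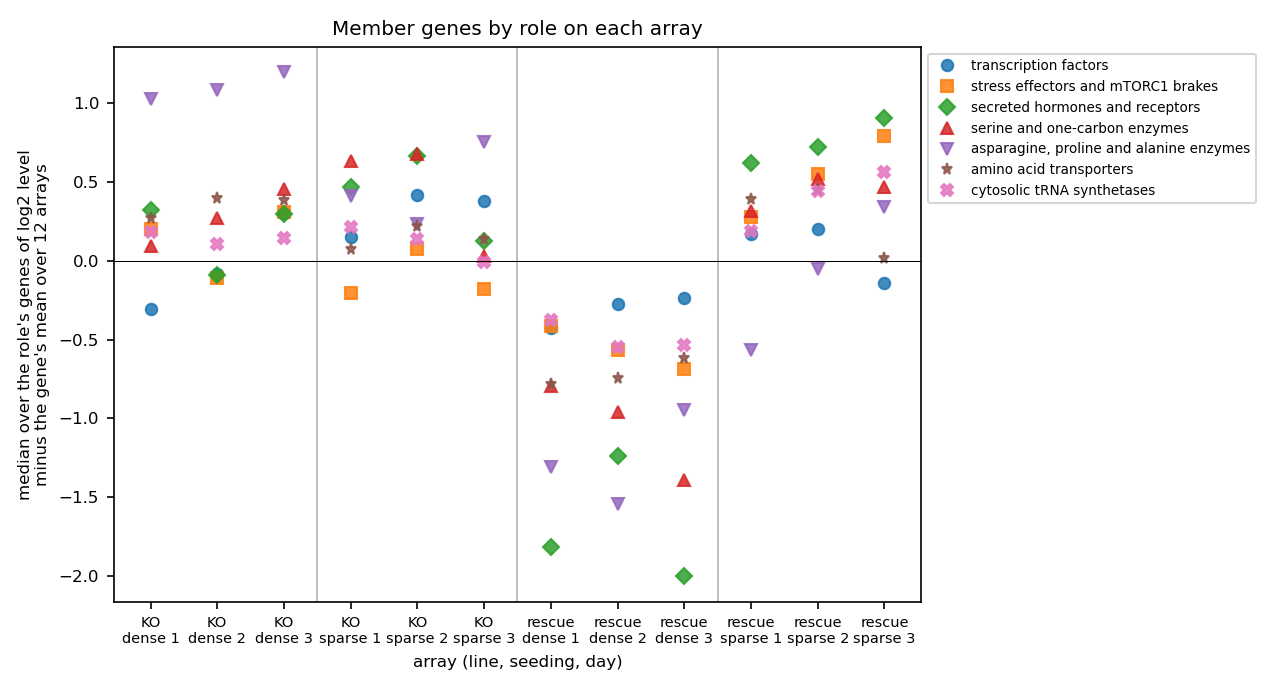
Median over the genes of each role of the log2 level minus the gene's mean over the 12 arrays (vertical axis, log2 units), for each array (horizontal axis, by line, seeding and day). The 3 dense rescue arrays lie below 0 in all 7 roles drawn; the pair of transsulfuration genes, which move in opposite directions between lines, is left out.

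In rescue cells 34 of the 48 genes fell and 3 rose with dense seeding, a median change of -1.10 against -0.08 over all genes. Calls were made with limma across all genes at an adjusted p under 0.05, and 40% of all genes passed in this comparison, 19% higher and 21% lower. Those that fell include Atf4 itself, the serine synthesis enzymes Phgdh, Psat1 and Psph, the cystine and leucine transporters and 10 of 12 synthetases. Nupr1, Vldlr and Ddit4 rose. No overlap between groups was seen for 39 of the 48 (50.6% of all genes). A scaling to spike-in RNA shifted the median of all genes to 0.64 and left 9 of the 48 genes lower and 4 higher. Of all 12438 genes, 321 were lower and 3091 higher under that scaling. The median of the 48 was then -0.38, or -1.02 relative to that of all genes. The proliferation markers moved with these genes: all 14 measured of 15 fell in dense rescue cells, with a median of -2.48 from Mybl2 at -3.86, and their part in the result was not tested.

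In KO cells dense seeding left almost all of the set without a call. Slc1a5, a glutamine carrier, rose and Slc7a1, a carrier of cationic amino acids, fell, and the other 46 did not pass (10.9% of all genes passed, 5.43% higher and 5.48% lower). At an unadjusted p under 0.05 in limma there were 16 of 48, a count not set against the share over all genes. The median change was 0.11 against -0.00 over all genes, and the 14 proliferation markers, none past the test, had a median of 0.06. Both calls rest on single arrays: without KO dense 2 the adjusted p of Slc1a5 was 0.138, and without KO sparse 3 that of Slc7a1 was 0.118, while counts over the 12 removals ran from 0 to 4 higher and from 0 to 2 lower (no call without KO dense 2, KO sparse 1 or KO sparse 3, where 12, 9 and 12 genes had an unadjusted p under 0.05). Without KO dense 2, KO sparse 1 or KO sparse 3, 514, 601 and 672 of all 12438 genes passed, in that order. The count and its split depend on scaling, with 6 higher and 0 lower after array median scaling, 5 and 1 after quantile normalisation and 48 and 0 after spike-in scaling, under which the median of all genes was 3.07. Of all 12438 genes, 1227 were higher and 290 lower after array median scaling and 948 and 553 after quantile normalisation. After spike-in scaling 12376 were higher and 2 lower. With day as a block 3 rose and 1 fell, with Aldh18a1 (1.27, adjusted p = 0.0279) and Slc6a9 (0.61, adjusted p = 0.0236) added.

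The response to density differed between the lines for 31 of the 48 genes by the interaction test, 30 of them with the more positive change in KO cells, against 20.7% of all genes (11.3% more positive, 9.46% more negative). The median interaction was 1.14, against 0.04 over all genes. The count of 30 was 9 with normexp background correction, 17 with the deposited values without day 3 and 47 with spike-in scaling. Over all genes the more positive count was 1402 of 12438 in the main fit and 371 of 12438 with normexp. It was 835 of 12421 with those deposited values and 10709 of 12438 with spike-in scaling. Among the largest were Slc7a5 at 3.08 ± 0.44 (SE) and Stc2 at 3.06 ± 0.32. The fitted 3.27 ± 0.65 of Slc7a11 rests on dense rescue arrays of which 0 of 3 were above background, and it is given no rank. The 1 gene with the opposite sign was Nupr1. With day as a block Cebpg joined them (0.80, adjusted p = 0.0404). Single arrays end some of these calls: that of Atf4 is lost when any 1 of 10 arrays is left out (adjusted p up to 0.0893, without KO sparse 1), that of Gars for any 1 of 8 (up to 0.0986, without KO sparse 3), that of Eprs for any 1 of 6 (up to 0.0766, without rescue dense 2) and that of Psph for any 1 of 5 (up to 0.0705, without KO dense 3), and 23 of the 31 held in all 12 removals. The counts over those removals were 24 to 30 more positive and 1 to 2 more negative.

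**Figure D2:**
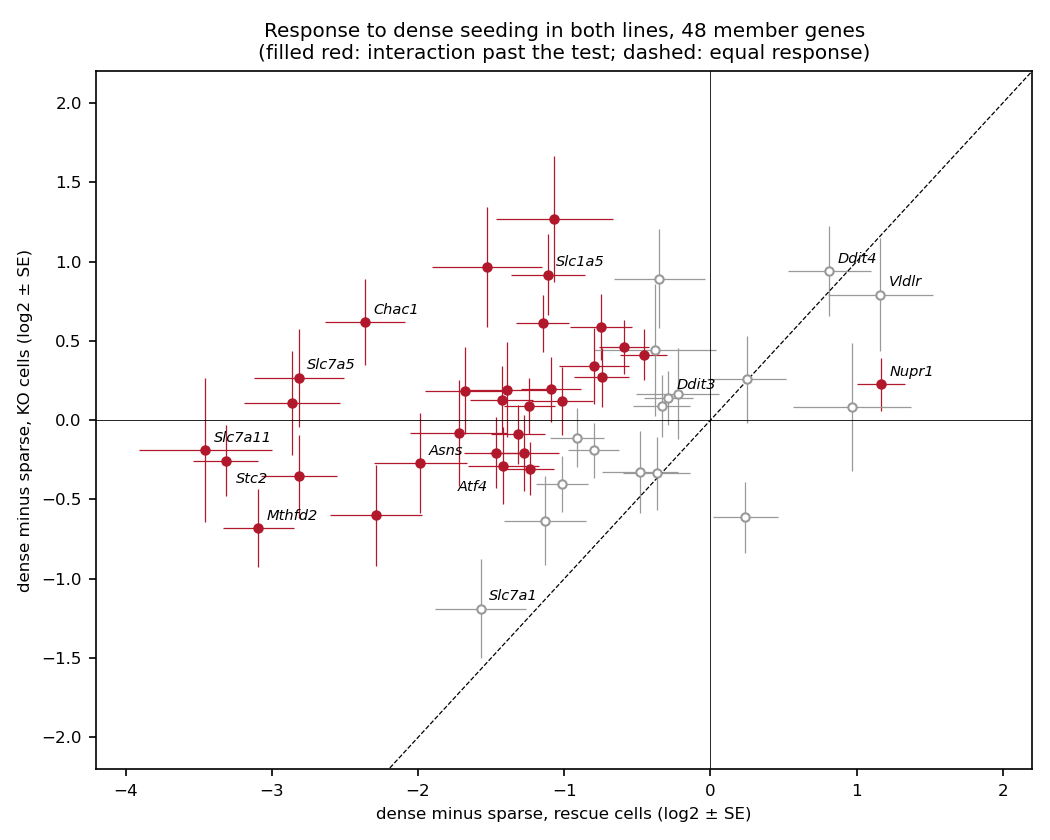
Log2 change with dense seeding (± SE) in rescue cells (horizontal) and KO cells (vertical) for the 48 genes, with filled red points where the interaction passed the test and a dashed line where both lines would respond alike. Most filled points lie left of 0 and above the dashed line, with Nupr1 as the filled exception below it.

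Between the lines the set followed the density. In dense cultures 29 of 48 genes were higher and 6 lower in KO than in rescue cells, with a median of 0.80 against 0.08 over all genes (61.6% of all genes passed, 31.9% higher and 29.7% lower). In sparse cultures 7 were higher and 14 lower with a median of -0.10 against 0.03 (48.8% passed, 23.2% higher and 25.6% lower). Groups did not overlap for 36 genes in dense (67.1% of all genes) and 28 in sparse cultures (58.9%). The sparse split was 5 higher and 19 lower after array median scaling, and 1 higher and 38 lower after spike-in scaling, which put the median of all genes at -1.52 in sparse and 0.88 in dense cultures. Of all 12438 genes in sparse cultures, 1785 were higher and 4048 lower after array median scaling, and 581 and 8871 after spike-in scaling. These 5 comparisons share arrays, so the dense rescue arrays enter the dense line difference, the rescue density change and the interaction alike.

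Only 1 of 5 slides held both lines, with the 4 arrays of day 2. Within it the median over the 48 genes was 0.93 for KO minus rescue in dense cultures, -0.14 in sparse cultures, -0.10 for dense minus sparse in KO cells, -1.14 for the same in rescue cells and 1.13 for the interaction. Within that slide all 35, 21, 2, 37 and 31 called genes of those comparisons had the sign of the fit. Its 4 arrays are also part of the fit that made the calls, so this agreement is no independent check. With slide as a block, the line difference averaged over the densities comes from that slide alone, while density changes come from all 5 slides. Under it 24 were higher and 6 lower in dense and 5 higher and 12 lower in sparse KO cultures. Of all 12438 genes, 3173 were higher and 3263 lower in dense and 1928 higher and 2485 lower in sparse KO cultures. That block ended the dense line calls of Slc7a1 (0.69, adjusted p = 0.162), Slc3a2 (0.64, adjusted p = 0.126), Shmt2 (0.57, adjusted p = 0.317), Lars (0.48, adjusted p = 0.0951) and Sesn2 (0.76, adjusted p = 0.0674). It ended the sparse line calls of Mthfd2 (0.61, adjusted p = 0.162), Slc3a2 (0.61, adjusted p = 0.174), Aldh1l2 (-0.61, adjusted p = 0.323) and Mars (-0.48, adjusted p = 0.297), and the interactions of Psat1 (adjusted p = 0.0515) and Gars (adjusted p = 0.057).

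**Figure D3:**
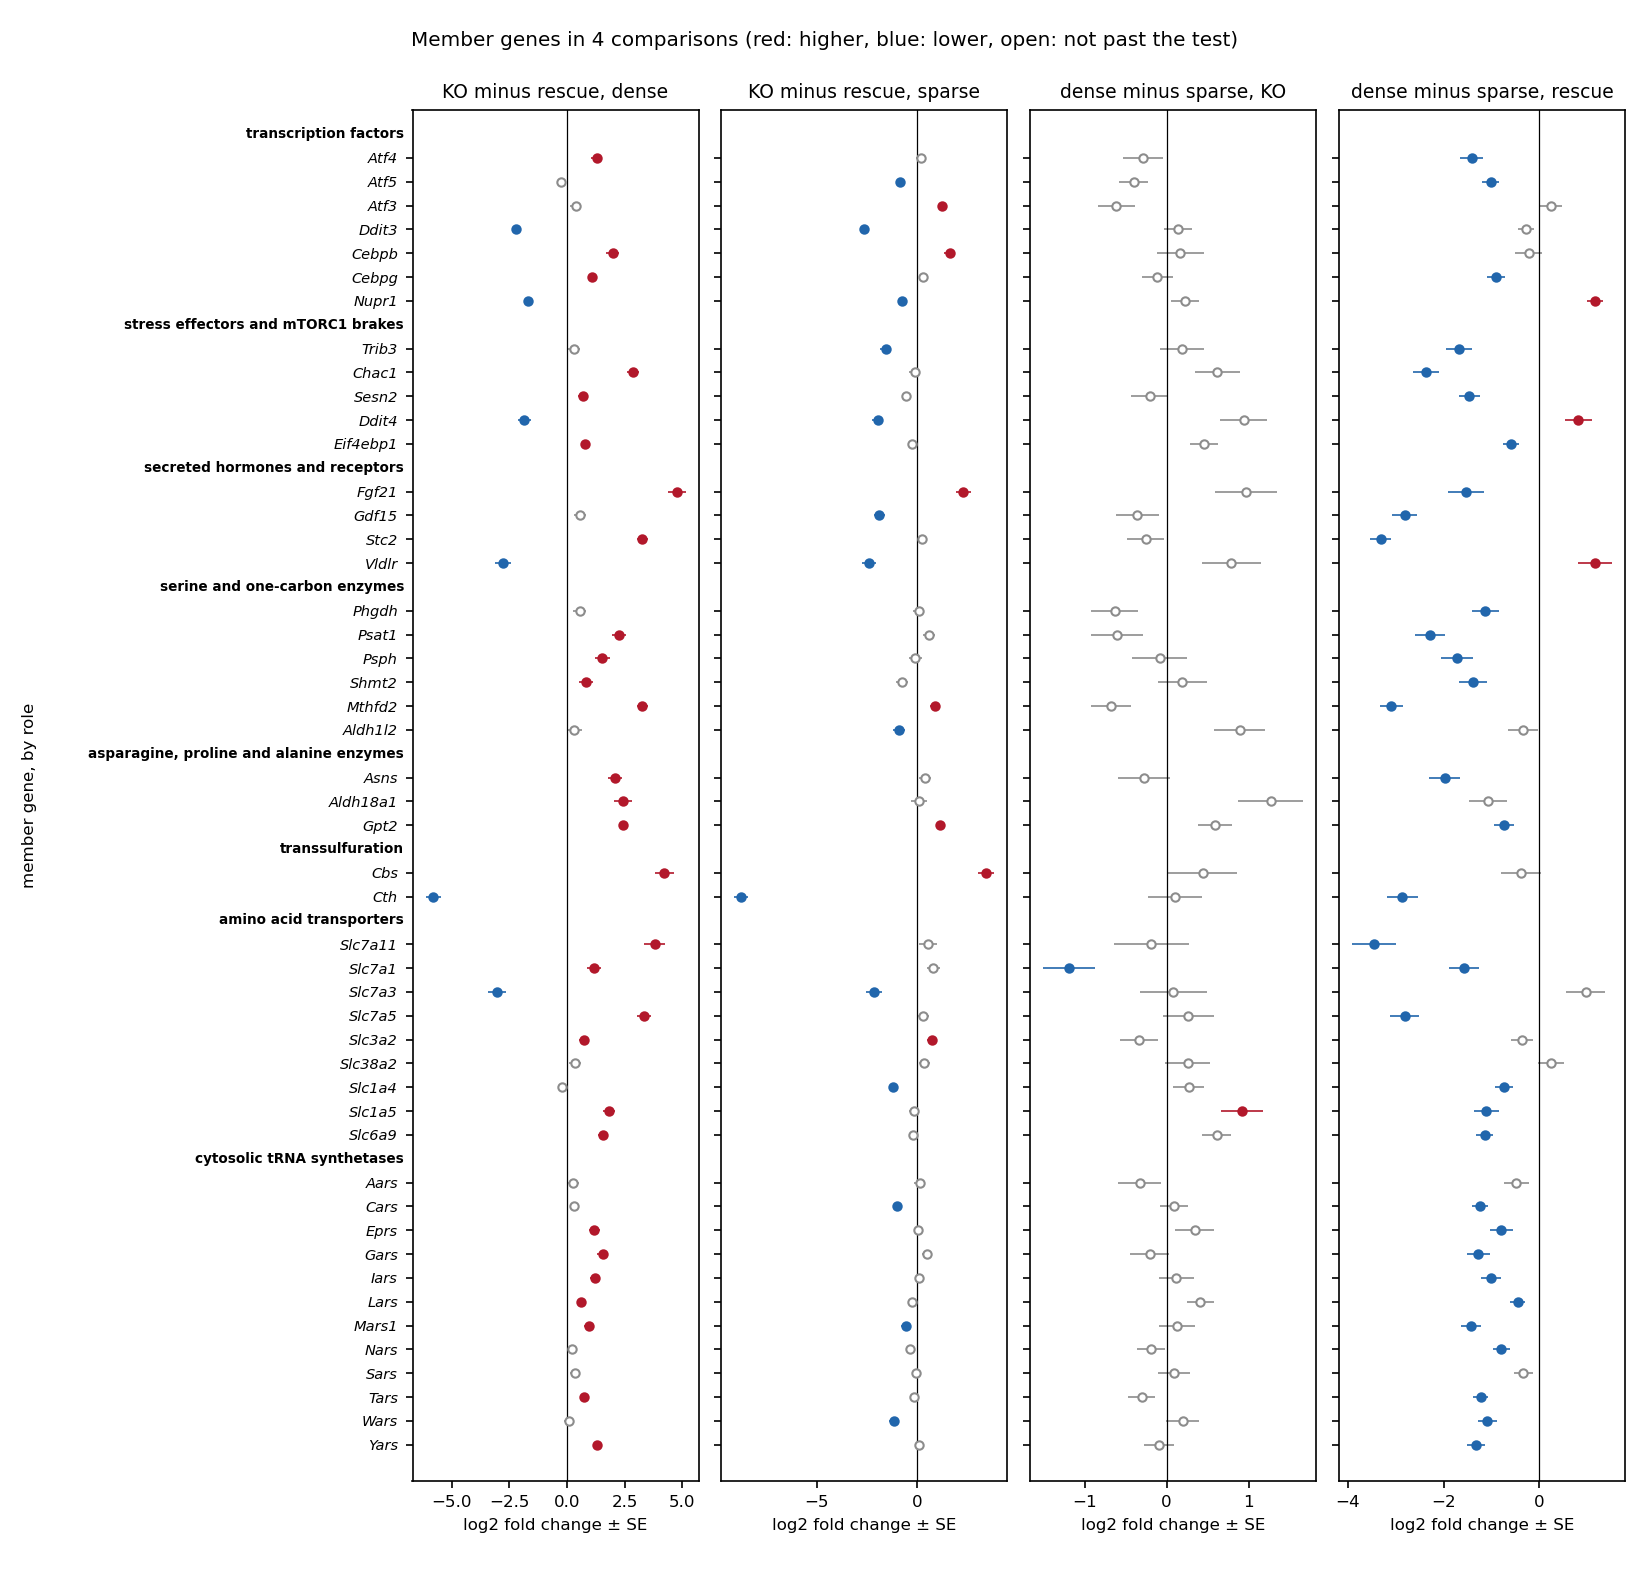
Log2 fold change ± SE of the 48 genes, grouped by role, in 4 comparisons (1 panel each, with its own horizontal scale); red is higher, blue lower and open not past the test. The rescue density panel is mainly blue and the dense line panel mainly red, while the KO density panel holds 2 filled points.

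Among 7 transcription factors, 3 fell and 1 rose with density in rescue cells, and 3 were higher and 2 lower in dense KO than in dense rescue cultures. Of all genes, 21% fell and 19% rose in the first comparison, and 31.9% were higher and 29.7% lower in the second. Atf4, the master regulator of the response, had levels of 3.67, 4.47 and 4.68 in dense KO and 4.31, 4.64 and 4.73 in sparse KO cultures, against 2.90, 3.02 and 3.02 in dense rescue and 4.22, 4.38 and 4.58 in sparse rescue cultures. All 3 dense rescue arrays lay below every other array. Atf4 was 1.29 ± 0.24 (SE) higher in dense KO than in dense rescue cultures (adjusted p = 0.000607), with 0.16 ± 0.24 in sparse cultures not past the test. It fell by 1.42 with density in rescue cells (adjusted p = 0.000773), with -0.29 in KO cells, and the interaction was 1.13 ± 0.34 (adjusted p = 0.0377). Cebpg, a C/EBP partner of ATF4, followed it at 1.1 between lines in dense cultures and -0.91 with density in rescue cells. Atf5, a relative of ATF4 that is also translated under eIF2 phosphorylation, fell with density in rescue cells (-1.02) and was lower in sparse KO cultures (-0.88).

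Ddit3, which encodes the stress factor CHOP, differed between lines at both densities. Its levels were 0.73, 0.49 and 0.68 in dense KO and 0.46, 0.48 and 0.54 in sparse KO cultures, against 2.73, 3.11 and 2.75 in dense rescue and 3.32, 2.94 and 3.20 in sparse rescue cultures. Every KO array lay below every rescue array, by -2.23 ± 0.17 in dense (adjusted p = 3.37e-07) and -2.66 ± 0.17 in sparse cultures (adjusted p = 9.26e-08). With density Ddit3 changed by 0.14 in KO and -0.29 in rescue cells, neither past the test. Cebpb, another C/EBP partner, lay the other way, at 1.92, 2.30 and 2.64 in dense KO and 1.46, 2.52 and 2.38 in sparse KO cultures, against 0.20, 0.24 and 0.46 in dense rescue and 0.35, 0.86 and 0.36 in sparse rescue cultures. KO arrays did not overlap rescue arrays at either density, and the differences were 1.99 ± 0.29 (adjusted p = 7.59e-05) and 1.60 ± 0.29 (adjusted p = 0.00062). Atf3, a stress-induced repressor, was 1.23 higher in sparse KO cultures (adjusted p = 0.000744), with 0.37 in dense cultures not past the test.

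Nupr1, a small chromatin protein induced by nutrient stress, ran against Atf4. It stood at 4.11, 4.25 and 4.32 in dense KO and 4.05, 3.91 and 4.04 in sparse KO cultures, against 5.69, 6.07 and 6.03 in dense rescue and 4.77, 4.93 and 4.59 in sparse rescue cultures. The dense rescue arrays were the highest and no KO array reached a rescue array. Nupr1 was lower in KO cells by -1.70 ± 0.17 in dense (adjusted p = 2.86e-06) and -0.76 ± 0.17 in sparse cultures (adjusted p = 0.0024). With density it rose by 1.17 ± 0.17 in rescue cells (adjusted p = 0.000219), with 0.23 in KO cells and an interaction of -0.94 ± 0.23 (adjusted p = 0.0155).

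Of 5 stress effectors and brakes on the growth kinase mTORC1, 4 fell with density in rescue cells and the fifth, Ddit4, rose. Over all genes 21% fell and 19% rose there. Chac1, which degrades glutathione, had levels of 5.30, 4.41 and 5.41 in dense KO and 4.55, 4.22 and 4.49 in sparse KO cultures, against 2.43, 2.0 and 2.11 in dense rescue and 4.20, 4.54 and 4.89 in sparse rescue cultures. Its dense rescue arrays lay apart from the other 9, which overlapped. It was 2.86 ± 0.27 higher in dense KO than in dense rescue cultures (adjusted p = 2.42e-06), with -0.13 in sparse cultures. With density it fell by 2.36 in rescue cells (adjusted p = 5.59e-05), with 0.62 in KO cells and an interaction of 2.98 ± 0.39 (adjusted p = 0.000456).

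Trib3, a pseudokinase that restrains ATF4 and AKT signalling, was highest in sparse rescue cultures. Its levels were 1.76, 2.5 and 2.93 in dense KO and 2.28, 2.17 and 2.17 in sparse KO cultures, against 2.04, 2.32 and 1.93 in dense rescue and 3.93, 4.0 and 3.41 in sparse rescue cultures. The 3 sparse rescue arrays lay above all others and the other groups overlapped. Trib3 was lower in sparse KO than in sparse rescue cultures by -1.57 ± 0.27 (adjusted p = 0.000482), with 0.30 in dense cultures. It fell by 1.68 with density in rescue cells (adjusted p = 0.000525), with an interaction of 1.87 ± 0.39 (adjusted p = 0.0061).

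Ddit4, an mTORC1 inhibitor also known as REDD1, was lower in KO cells at both densities. It stood at 4.12, 4.43 and 3.61 in dense KO and 3.13, 3.0 and 3.22 in sparse KO cultures, against 5.69, 6.27 and 5.74 in dense rescue and 4.58, 5.09 and 5.6 in sparse rescue cultures. No KO array reached a rescue array, and the differences were -1.85 ± 0.28 in dense (adjusted p = 0.000122) and -1.97 ± 0.28 in sparse cultures (adjusted p = 0.000109). With density it rose by 0.81 ± 0.28 in rescue cells (adjusted p = 0.038), a call lost when any 1 of 5 arrays is left out (0.56 and adjusted p = 0.147 without rescue sparse 1), and changed by 0.94 in KO cells (adjusted p = 0.0543). Sesn2, a leucine-sensing brake on mTORC1, fell with density in rescue cells (-1.46) and was 0.70 higher in dense KO cultures (adjusted p = 0.0175), a difference not past the test without KO dense 1 (0.49, adjusted p = 0.0723), rescue dense 2 (0.64, adjusted p = 0.0534) or rescue dense 3 (0.58, adjusted p = 0.0652). In sparse cultures Sesn2 differed by -0.56, past the test with day as a block (adjusted p = 0.0373). Eif4ebp1, a translation inhibitor that mTORC1 switches off, fell by 0.59 with density in rescue cells and was 0.78 higher in dense KO cultures, and the rescue call is lost without rescue sparse 1, rescue sparse 2 or rescue dense 2 (adjusted p up to 0.0584, changes of -0.53, -0.53 and -0.52).

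The 4 secreted hormones and receptors gave some of the largest differences. Stc2, a secreted glycoprotein hormone, had levels of -2.08, -2.12 and -1.83 in dense KO and -1.76, -1.45 and -2.06 in sparse KO cultures, against -5.29, -4.94 and -5.62 in dense rescue and -2.2, -1.98 and -1.73 in sparse rescue cultures. The dense rescue arrays lay far below the other 9, and 2 of those 3 were above background. Stc2 was 3.28 ± 0.22 higher in dense KO than in dense rescue cultures (adjusted p = 1.33e-07), with 0.21 in sparse cultures. It fell by 3.32 with density in rescue cells (adjusted p = 2.01e-06), with -0.25 in KO cells, and the interaction of 3.06 ± 0.32 had an adjusted p of 0.000141.

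Fgf21, a metabolic hormone that ATF4 induces in liver, was higher in KO cells at both densities. Its levels were -1.05, -1.21 and -1.29 in dense KO and -2.30, -2.11 and -2.04 in sparse KO cultures, against -5.81, -5.08 and -6.97 in dense rescue, where 2 of 3 arrays were above background, and -4.85, -4.18 and -4.25 in sparse rescue cultures. The groups ranked dense KO, sparse KO, sparse rescue and dense rescue with no overlap. The line differences were 4.77 ± 0.38 in dense (adjusted p = 4.5e-07) and 2.28 ± 0.38 in sparse cultures (adjusted p = 0.000334). With density Fgf21 fell by 1.53 in rescue cells (adjusted p = 0.00706) and changed by 0.97 in KO cells without passing, with an interaction of 2.49 ± 0.53 (adjusted p = 0.00718).

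Gdf15, a stress hormone of the TGF-beta family, fell by 2.82 with density in rescue cells (adjusted p = 1.42e-05) and was lower in sparse KO than in sparse rescue cultures by -1.90 (adjusted p = 7.64e-05), with 0.56 in dense cultures not past the test. Vldlr, the receptor for very low density lipoprotein, was lower in KO cells, with levels of 1.58, 0.79 and -0.27 in dense KO and -0.06, -0.24 and 0.02 in sparse KO cultures, against 3.34, 3.79 and 3.33 in dense rescue and 2.29, 2.27 and 2.40 in sparse rescue cultures. KO arrays lay below all rescue arrays, and the dense KO arrays were widely spread. The differences were -2.79 ± 0.36 in dense (adjusted p = 2.9e-05) and -2.41 ± 0.36 in sparse cultures (adjusted p = 0.000141). In rescue cells Vldlr rose by 1.16 with density (adjusted p = 0.0219), a call lost without rescue sparse 1 (1.15, adjusted p = 0.0545), rescue sparse 2 (1.14, adjusted p = 0.0547) or rescue dense 2 (1.01, adjusted p = 0.0751).

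**Figure D4:**
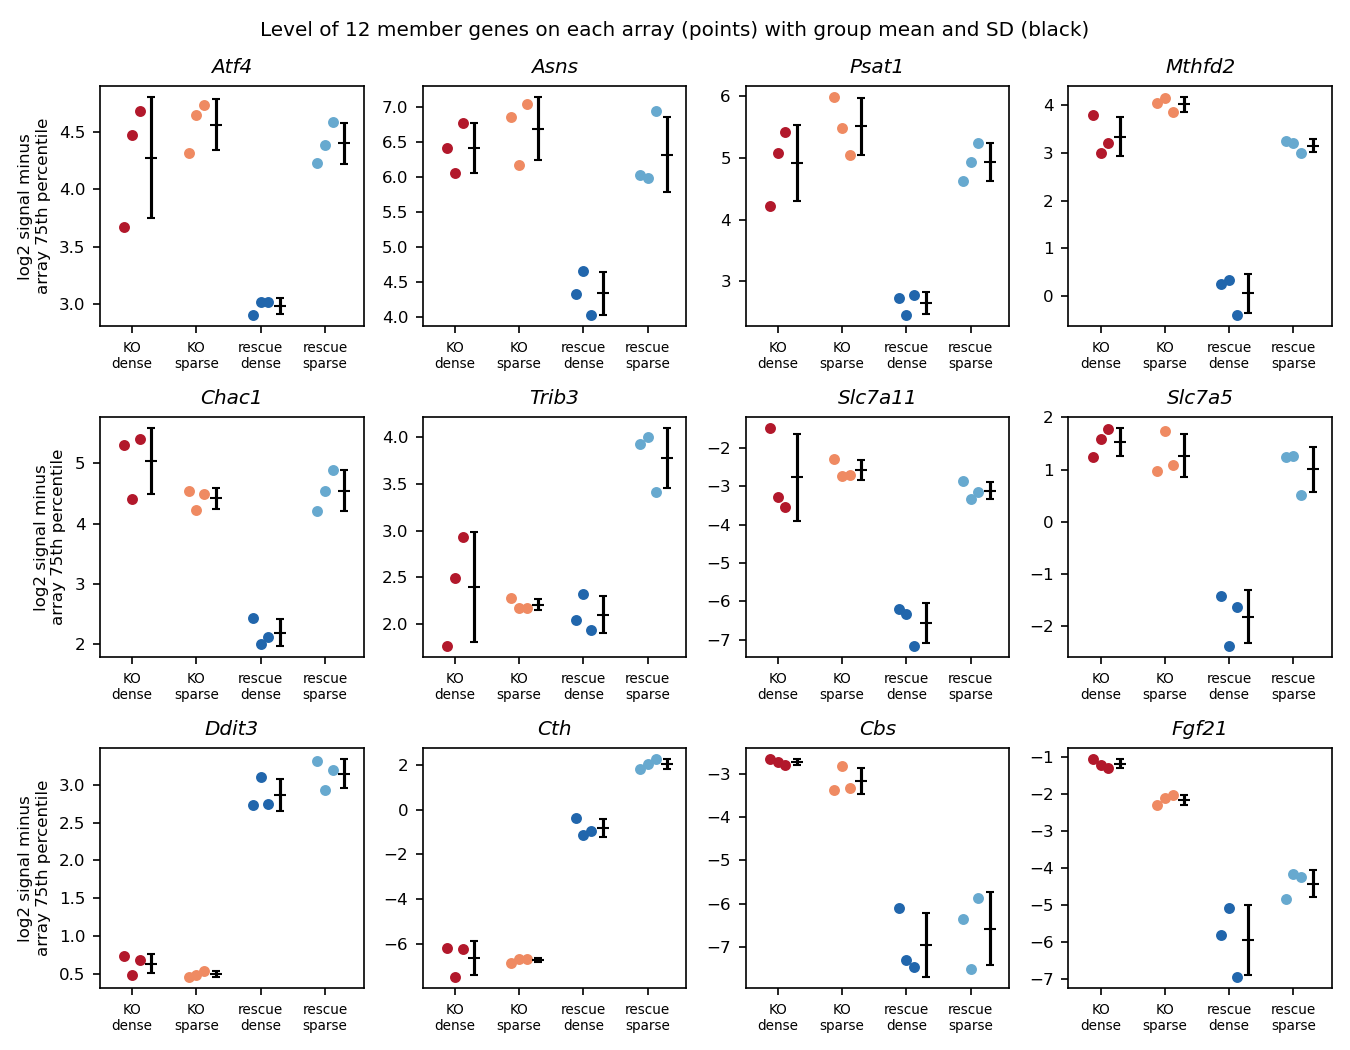
Log2 level minus the array's 75th percentile (vertical axis) for 12 genes in the 4 groups; coloured points are the 3 arrays of a group and black marks its mean and SD. Atf4, Asns, Psat1, Mthfd2, Chac1, Slc7a11 and Slc7a5 are lowest in dense rescue cultures, Trib3 is highest in sparse rescue cultures, and Ddit3, Cth, Cbs and Fgf21 separate the lines.

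Among the 6 serine and one-carbon enzymes, 5 fell with density in rescue cells, with a median of -1.56, and 4 were higher in dense KO cultures. The shares over all genes were 21% and 31.9% in that order. Phgdh, the first enzyme of serine synthesis, had levels of 6.36, 7.11 and 6.83 in dense KO and 7.65, 7.71 and 6.84 in sparse KO cultures, against 6.14, 6.61 and 5.88 in dense rescue and 7.44, 7.41 and 7.18 in sparse rescue cultures. Dense and sparse rescue arrays did not overlap, while the dense groups of the lines did. Phgdh fell by 1.13 with density in rescue cells (adjusted p = 0.00758), and its 0.56 ± 0.28 between lines in dense cultures was not past the test (adjusted p = 0.106).

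Psat1, the next enzyme of that pathway, had levels of 4.23, 5.09 and 5.42 in dense KO and 5.99, 5.49 and 5.06 in sparse KO cultures, against 2.74, 2.45 and 2.78 in dense rescue and 4.63, 4.94 and 5.25 in sparse rescue cultures. Dense rescue arrays lay below all others. Psat1 was 2.26 ± 0.32 higher in dense KO than in dense rescue cultures (adjusted p = 6.22e-05), with 0.57 in sparse cultures not past the test. It fell by 2.29 with density in rescue cells (adjusted p = 0.000184), and its interaction of 1.69 ± 0.45 (adjusted p = 0.0209) was lost without KO sparse 3 (1.46, adjusted p = 0.0508), KO dense 2 (1.60, adjusted p = 0.0504) or rescue dense 2 (1.59, adjusted p = 0.0508). Psph, the last step to serine, fell by 1.72 with density in rescue cells and was 1.53 higher in dense KO cultures.

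Mthfd2, a mitochondrial folate enzyme, had levels of 3.80, 3.01 and 3.22 in dense KO and 4.05, 4.16 and 3.85 in sparse KO cultures, against 0.26, 0.34 and -0.40 in dense rescue and 3.26, 3.20 and 3.01 in sparse rescue cultures. Dense rescue arrays were separate from the other 9. Mthfd2 was higher in KO cells by 3.28 ± 0.25 in dense (adjusted p = 2.87e-07) and 0.86 ± 0.25 in sparse cultures (adjusted p = 0.0117), where the call was lost with slide as a block (adjusted p = 0.162). It fell by 3.09 with density in rescue cells (adjusted p = 5.12e-06), with -0.68 in KO cells and an interaction of 2.41 ± 0.35 (adjusted p = 0.000797). Shmt2, which splits serine to glycine in mitochondria, fell by 1.39 with density in rescue cells, and its 0.82 between lines in dense cultures (adjusted p = 0.0308) was lost when any 1 of 4 dense arrays was left out (0.66 and adjusted p = 0.11 without rescue dense 3). Aldh1l2, a mitochondrial folate dehydrogenase, was lower in sparse KO cultures by -0.92 (adjusted p = 0.0288), a call lost without KO sparse 2, KO sparse 3, rescue sparse 2 or rescue sparse 3 (adjusted p up to 0.108, where the difference was -0.56).

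Asns, which makes asparagine and is a standard readout of ATF4, had levels of 6.42, 6.07 and 6.78 in dense KO and 6.86, 6.18 and 7.04 in sparse KO cultures, against 4.34, 4.66 and 4.03 in dense rescue and 6.04, 6.00 and 6.94 in sparse rescue cultures. Dense rescue arrays lay below all others, which overlapped. Asns was 2.08 ± 0.32 higher in dense KO than in dense rescue cultures (adjusted p = 0.000115), with 0.37 in sparse cultures. With density it fell by 1.98 in rescue cells (adjusted p = 0.00047), with -0.27 in KO cells and an interaction of 1.71 ± 0.45 (adjusted p = 0.0191). Gpt2, the mitochondrial alanine transaminase, was higher in KO cells at both densities (2.45 in dense and 1.11 in sparse cultures). Its fall of -0.75 with density in rescue cells (adjusted p = 0.0139) was not past the test without rescue dense 2 (-0.61, adjusted p = 0.0539). Aldh18a1, which starts proline synthesis, was 2.42 higher in dense KO cultures (adjusted p = 0.000222). Its changes with density, 1.27 in KO (adjusted p = 0.0641) and -1.07 in rescue cells (adjusted p = 0.0515), passed with day or slide as a block (with day, adjusted p = 0.0279 and 0.0188).

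The pair of transsulfuration enzymes, which make cysteine from homocysteine, differed between the lines in opposite directions. Cth, the second step, had levels of -6.17, -7.50 and -6.21 in dense KO and -6.85, -6.69 and -6.67 in sparse KO cultures, with 0 of 3 arrays above background in each, against -0.38, -1.12 and -0.95 in dense rescue and 1.81, 2.06 and 2.27 in sparse rescue cultures. Cth was above background in rescue cells and in no KO array. The level in KO cells is a bound: Cth was at least 33.7-fold lower in dense KO (adjusted p = 2.41e-08) and at least 166-fold lower in sparse KO cultures (adjusted p = 8.4e-10). A bound sets the mean of the bright group against the lowest signal that counts as above background on each array of the dim one, or the dim probe's own where that is higher. An adjusted p printed with a bound, here and below, belongs to the fitted difference, which uses signals below background, and does not test the bound. The Cth probe was kept through the rescue groups alone. In rescue cells Cth fell by 2.86 ± 0.33 with density (adjusted p = 5.34e-05), and its interaction of 2.97 rests on KO arrays below background.

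Cbs, the first step, had levels of -2.66, -2.74 and -2.79 in dense KO and -3.37, -2.82 and -3.32 in sparse KO cultures, against -6.11, -7.30 and -7.48 in dense rescue, with 1 of 3 arrays above background, and -6.37, -7.51 and -5.87 in sparse rescue cultures, with 0 of 3. All KO arrays lay above all rescue arrays. Cbs was higher in dense KO (fitted difference 4.23 ± 0.42, against a group with 1 of 3 arrays above background, adjusted p = 3.18e-06) and at least 6.7-fold higher in sparse KO cultures (adjusted p = 2.97e-05). Its probe was kept through the KO groups alone.

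Of 9 amino acid transporters, 6 fell with density in rescue cells (median -1.11) and 6 were higher in dense KO cultures (median 1.17). The shares over all genes were 21% and 31.9% in that order. Slc7a11, the cystine-glutamate exchanger, had levels of -1.48, -3.29 and -3.54 in dense KO and -2.28, -2.74 and -2.72 in sparse KO cultures, against -6.20, -6.34 and -7.18 in dense rescue, with 0 of 3 arrays above background, and -2.87, -3.32 and -3.16 in sparse rescue cultures. Dense rescue cultures were the only group in which it was not detected. It was at least 11.7-fold higher in dense KO than in dense rescue cultures (adjusted p = 1.71e-05) and at least 9.16-fold lower in dense than in sparse rescue cultures (adjusted p = 0.000135). In KO cells the change with density was -0.19 ± 0.46 and in sparse cultures the line difference was 0.54 ± 0.46, neither past the test.

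Slc7a5, the leucine carrier LAT1, had levels of 1.24, 1.58 and 1.77 in dense KO and 0.97, 1.73 and 1.09 in sparse KO cultures, against -1.42, -2.38 and -1.64 in dense rescue and 1.23, 1.26 and 0.51 in sparse rescue cultures. Dense rescue arrays lay below all others. It was 3.34 ± 0.31 higher in dense KO than in dense rescue cultures (adjusted p = 1.76e-06), with 0.26 in sparse cultures. It fell by 2.82 with density in rescue cells (adjusted p = 3.91e-05), with 0.27 in KO cells and an interaction of 3.08 ± 0.44 (adjusted p = 0.000734). Slc3a2, its heavy chain partner, changed with density by -0.34 in KO and -0.37 in rescue cells, neither past the test. It was higher in KO cells by 0.75 in dense (adjusted p = 0.0138) and 0.72 in sparse cultures (adjusted p = 0.0219). The dense call is lost without KO dense 3 (0.66, adjusted p = 0.0522), and the sparse one without KO sparse 1 (0.66, adjusted p = 0.0688), KO sparse 2 (0.66, adjusted p = 0.069) or rescue sparse 3 (0.48, adjusted p = 0.0766).

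Slc1a5, a carrier of glutamine and other neutral amino acids, had levels of 3.59, 3.99 and 3.85 in dense KO and 2.72, 3.15 and 2.80 in sparse KO cultures, against 1.93, 1.57 and 2.41 in dense rescue and 2.65, 3.38 and 3.21 in sparse rescue cultures. Dense KO arrays were the highest and dense rescue arrays the lowest. It was 1.84 ± 0.26 higher in dense KO than in dense rescue cultures (adjusted p = 5.72e-05), with -0.19 in sparse cultures. With density it rose by 0.92 in KO cells (adjusted p = 0.0412) and fell by 1.11 in rescue cells (adjusted p = 0.00485), with an interaction of 2.03 (adjusted p = 0.00274).

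Slc7a1, the main carrier of arginine and lysine, had levels of -2.19, -2.71 and -2.79 in dense KO and -1.69, -1.45 and -0.98 in sparse KO cultures, against -3.56, -3.20 and -4.44 in dense rescue and -2.07, -1.97 and -2.45 in sparse rescue cultures. Dense arrays lay below sparse arrays in both lines. It fell by 1.19 ± 0.31 with density in KO (adjusted p = 0.034) and by 1.57 ± 0.31 in rescue cells (adjusted p = 0.00204), with an interaction of 0.38 not past the test. Its relative Slc7a3, another arginine carrier, lay the other way between lines, at -4.15, -3.81 and -4.34 in dense KO and -4.64, -3.02 and -4.90 in sparse KO cultures, against -1.45, -0.68 and -1.07 in dense rescue and -2.10, -1.90 and -2.10 in sparse rescue cultures. No KO array reached a rescue array, and the differences were -3.03 ± 0.40 in dense (adjusted p = 4.09e-05) and -2.15 ± 0.40 in sparse cultures (adjusted p = 0.000889). Its change of 0.97 with density in rescue cells (adjusted p = 0.0776) passed with day as a block (adjusted p = 0.0276).

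Slc6a9, the glycine carrier GLYT1, was 1.55 higher in dense KO cultures and fell by 1.15 with density in rescue cells. Slc1a4, a carrier of alanine, serine and cysteine, was lower in sparse KO cultures (-1.21) and fell by 0.74 with density in rescue cells. Slc38a2, the adaptive neutral amino acid carrier SNAT2, passed no test, with differences of 0.35 in dense and 0.34 in sparse cultures and of 0.26 and 0.25 with density in KO and rescue cells.

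The 12 cytosolic synthetases moved together in rescue cells: 10 fell with density and none rose, with a median of -1.05 (21% of all genes fell). In KO cells none of the 12 passed with density (median 0.09), and the interaction passed for 9 of them, all positive (median 1.1). In dense cultures 7 were higher in KO cells and none lower (median 0.67), where 31.9% of all genes were higher. In sparse cultures none was higher and 3 were lower, a share near the 25.6% of all genes that were lower there. The 3 were Wars (-1.19), Cars (-1.01) and Mars (-0.58), the enzymes for tryptophan, cysteine and methionine. The rescue falls ran from -0.45 for Lars (leucine) to -1.43 for Mars, through Nars (-0.80, asparagine), Eprs (-0.80, glutamate and proline), Iars (-1.01, isoleucine), Wars (-1.09), Tars (-1.23, threonine), Cars (-1.24), Gars (-1.28) and Yars (-1.32, tyrosine). The dense line differences that passed were Gars 1.55, Yars 1.33, Iars 1.23, Eprs 1.19, Mars 0.97, Tars 0.74 and Lars 0.60. Sars, for serine, passed no test, with -0.33 in rescue and 0.09 in KO cells. The smaller calls rest on single arrays: without KO sparse 3 the sparse difference of Mars was -0.46 (adjusted p = 0.148), without rescue sparse 2 the rescue density change of Lars was -0.35 (adjusted p = 0.144) and without rescue dense 2 that of Eprs was -0.67 (adjusted p = 0.0694).

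Aars, for alanine, passed no test either, although its promoter holds 2 copies of the motif. Its levels were 4.52, 5.11 and 5.31 in dense KO and 5.36, 5.30 and 5.26 in sparse KO cultures, against 4.83, 4.70 and 4.62 in dense rescue and 5.49, 5.5 and 4.61 in sparse rescue cultures. Sparse rescue 3 lay with the dense rescue arrays and overlapped them. The change with density in rescue cells was -0.48 (95% interval -1.05 to 0.09), so a fall of the size seen for Iars lies within its interval.

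Genes with and without the motif were counted side by side. Of the 14 measured genes with it, 2 rose and 10 fell with density in rescue cells (median -1.25), and of the 24 with a promoter but no match 1 rose and 16 fell (median -1.10). In dense cultures 8 were higher and 2 lower in KO cells (median 0.98), against 17 and 2 (median 1.14). In sparse cultures 2 were higher and 4 lower (median 0.10), against 5 and 5 (median 0.07). Both genes with the motif that rose in dense rescue cells, Nupr1 and Vldlr, hold the same letters TTGCATCA as Chac1 and Fgf21, which fell. Having no match says only that these letters are not in the window.

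Related lists, which hold none of the 49 genes, were read beside them. Over all genes 21% fell and 19% rose with density in rescue cells, against 5.48% and 5.43% in KO cells. In dense cultures 31.9% of all genes were higher and 29.7% lower in KO cells. Of 11 other cytosolic synthetases and scaffold proteins, 6 fell and none rose with density in rescue cells (median -1.14), among them the scaffold protein Eef1e1 (-1.65) and Vars, for valine (-1.63). In KO cells 2 fell, Aimp2 (-0.81) and Kars (-0.61). Of 16 mitochondrial synthetases 5 fell in rescue cells (median -0.59), among them Mars2 (-2.28) and Yars2 (-1.01). In dense cultures 6 of the 11 were higher and 1 lower in KO cells, with Farsa (2.33) and Vars (2.28) the largest, and 7 of the 16 were higher and 1 lower, with Yars2 (1.84) the largest. The other 11 of the 16 mitochondrial synthetases did not pass with density in rescue cells, where 21% of all genes fell.

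The kinases, initiation factors and phosphatase subunits of the response were mixed: of 13 measured, 2 rose and 5 fell with density in rescue cells (median -0.35), with the PERK gene Eif2ak3 up by 0.93 and the phosphatase subunit Ppp1r15a, a known ATF4 target, at -1.39. Eif2ak4, the gene of GCN2, was lower in sparse KO cultures (-1.0). Endoplasmic reticulum chaperones gave 8 of 12 higher and 1 lower in dense KO cultures (median 0.95), led by Sdf2l1 (2.08) and Manf (1.86), and 6 fell and 1 rose with density in rescue cells (median -0.71). In KO cells 2 of the 12 rose with density, among them Xbp1 (0.77).

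Of 17 other enzymes of amino acid and one-carbon metabolism, 9 fell and 1 rose with density in rescue cells (median -0.56), with Prodh, which breaks down proline, at -2.42 and Bcat1, the cytosolic branched-chain transaminase, at -2.40. Bcat1 was 2.65 higher in dense KO cultures. Of 14 other transporters 5 fell and 3 rose in rescue cells (median -0.42). Slc43a1, a leucine carrier, was higher in KO cells by 6.43 in dense and 5.28 in sparse cultures, while Slc7a7, which exports cationic amino acids, was lower by -3.23 and -2.0. Genes listed for amino acid sensing by mTORC1, a mixed list that includes Mtor itself and Rptor, ran the other way. With density in rescue cells 8 of 14 rose and 1 fell (median 0.60), led by Rragd (2.81) and Sesn1 (1.73). In dense KO cultures 11 were lower and 1 higher (median -1.16), with Sesn3 at -3.78 and Mtor 0.62 higher.

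**Figure D5:**
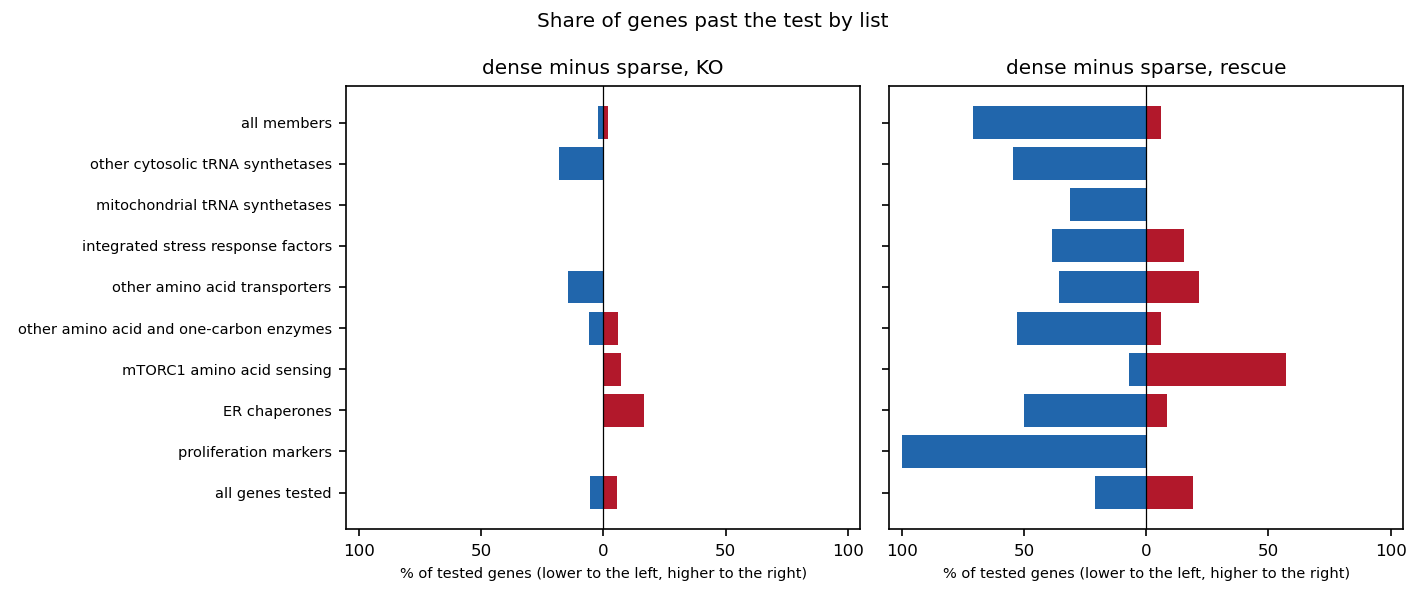
Share of the tested genes of each list past the test with dense seeding (horizontal axis, percent, lower to the left and higher to the right) in KO cells (left panel) and rescue cells (right panel), with the 48 genes at the top and all genes tested at the bottom. In rescue cells the 48 genes show 34 lower and 3 higher, and the proliferation markers 14 of 14 lower, while the KO panel is nearly empty.

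Proliferation markers shared the low values of dense rescue cultures, while in sparse cultures their median between lines was positive and that of the 48 genes negative. In dense cultures all 14 were higher in KO cells with a median of 2.59, led by Ccne2 (4.53) and E2f8 (4.47), against 5 higher and 1 lower in sparse cultures with a median of 0.53 (-0.10 for the 48 genes). Their interaction passed for 13 of 14 with a median of 2.51. These values stand beside every dense line difference of the 48 genes, and their part in it was not tested.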

How the data were processed

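Total RNA (100 ng) was reverse-transcribed with spike-in controls and hybridised as Cy3-labelled cRNA to Agilent arrays, per the labels' protocols. The scanner files give linear spot intensity written by Feature Extraction (10.5.1.1 per the file headers, version 10 per the submitters' processing notes), with background subtracted within each array and no scaling between arrays. The authors' deposited values are log2 intensity, with the normalisation not given in the sources used here. Starting from the scanner files, control spots and 79 to 265 spots per array marked as outliers were left out, no spot was saturated, the processed signal was taken as log2 minus the array's 75th percentile, and 25931 probes were kept that the scanner called well above background throughout at least 1 group. RefSeq identifiers named 18158 of these, and the brightest probe stood for a gene. limma 3.58.1 (R 4.3.3) fitted 1 mean per group across 12438 genes. p-values were adjusted by Benjamini-Hochberg within each of 5 comparisons (KO minus rescue in dense and in sparse cultures, dense minus sparse in KO and in rescue cells, and the interaction), and an adjusted p under 0.05 made a call. The script was tested on simulated data. The number of arrays limits the precision: an exact permutation test of 3 against 3 cultures cannot go below 0.1. Cultures are separate per experimental day.

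The members, lists and tests were chosen with earlier results of these data known. Per-array values are given for 11 set genes (Atf4, Asns, Psat1, Phgdh, Chac1, Trib3, Ddit3, Slc7a11, Cth, Fgf21 and Aars) and for the 3 largest rises and falls that passed in each comparison, 22 genes in all; from each other list the largest 2 changes in each direction that passed could be named. The labels name experimental days, which pair the cultures by replicate number. Deviations of same-day arrays correlated by -0.038 to 0.29, above 0.1 in 11 of 18 pairs. Alternatives were scaling to the array median, quantile normalisation, spike-in scaling (6 probes), normexp background correction (offset 50, with the median spot signal where the mean had been planned, since the files give the median), no or a stricter filter on dim probes, the median of a gene's probes, day and slide as blocks, leaving out each array, and the deposited values. Pycr1 was not analysed here.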

Additional observations from a re-analysis of the deposited data

Results flagged for a closer look

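For 31 genes the change with dense seeding differed between the lines by the interaction test in limma (dense minus sparse in KO cells minus the same in rescue cells, log2, adjusted p under 0.05), against 20.7% of all genes. Among transcription factors these were Atf4 (1.13) and Nupr1 (-0.94). Among stress effectors they were Chac1 (2.98), Trib3 (1.87), Sesn2 (1.26) and Eif4ebp1 (1.05), and among secreted hormones Stc2 (3.06), Fgf21 (2.49) and Gdf15 (2.46). Enzymes of serine and one-carbon metabolism gave Mthfd2 (2.41), Psat1 (1.69), Psph (1.64) and Shmt2 (1.58), and those of asparagine, proline and alanine gave Aldh18a1 (2.34), Asns (1.71) and Gpt2 (1.33). Cth had a fitted 2.97, with both KO groups below background, and Slc7a11 a fitted 3.27, with dense rescue cultures below background, so neither is an exact size. Other transporters gave Slc7a5 (3.08), Slc1a5 (2.03), Slc6a9 (1.76) and Slc1a4 (1.01). Synthetases gave Mars (1.56), Cars (1.33), Wars (1.29), Yars (1.23), Eprs (1.14), Iars (1.13), Gars (1.07), Tars (0.93) and Lars (0.87). Under spike-in scaling, which moved the median interaction of all genes to 2.39, Nupr1 turned to 1.41.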

How the results depend on the processing

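Spike-in scaling put the medians over all genes at 0.88 and -1.52 for KO minus rescue in dense and sparse cultures and at 3.07 and 0.64 for density in KO and rescue cells. Under it 1 gene was higher and 38 lower in sparse KO cultures, 48 rose and 0 fell with density in KO cells, 9 fell with density in rescue cells, all of them among the 34, and the interaction gave 47 and 0. Of all 12438 genes, 581 were higher and 8871 lower in sparse KO cultures under this scaling. With density 12376 rose and 2 fell in KO cells, 3091 rose and 321 fell in rescue cells, and the interaction gave 10709 and 50. Relative to all genes the median of the 48 stayed at 0.73 and -0.12 between lines in dense and sparse cultures. For density in KO and rescue cells it stayed at 0.12 and -1.02. Sign changes are listed for the 22 genes with per-array values, and only where the main fit or this scaling made a call. Signs turned under it for sparse line differences of Atf4 (-1.38), Asns (-1.18), Phgdh (-1.49), Aars (-1.44), Stc2 (-1.33), Mthfd2 (-0.68) and Slc7a5 (-1.29). They also turned for KO density changes of Atf4 (2.78), Asns (2.80), Psat1 (2.47), Phgdh (2.44), Slc7a11 (2.88), Aars (2.74), Slc7a1 (1.88), Stc2 (2.82) and Mthfd2 (2.39), and for interactions of Vldlr (1.98) and Nupr1 (1.41). The cause of each change was not tested.

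For KO density, where 1 rose and 1 fell, counts were 6 and 0 with array median scaling, 5 and 1 with quantile normalisation, 0 and 0 with normexp (5 at an unadjusted p under 0.05 in limma) or with no filter on dim probes (13), 4 and 1 with the stricter filter, 4 and 2 with the median of a gene's probes and 3 and 1 with slide as a block. Over all genes KO density gave 17 and 30 of 12438 with normexp and 421 and 486 of 17016 with no filter. It gave 704 and 694 of 10062 with the stricter filter. With the median of a gene's probes it gave 708 and 951 of 12438, and with slide as a block 711 and 677. For the interaction, array median scaling gave 31 and 0, and normexp 9 and 0, all 9 among the 30. Over all 12438 genes array median scaling gave 1694 and 696, and normexp 371 and 221. With the median of a gene's probes 3 rose and 36 fell with density in rescue cells. Under the same setting 31 were higher and 6 lower in dense and 10 higher and 15 lower in sparse KO cultures. Over all 12438 genes that setting gave 2336 higher and 2823 lower for rescue density. It gave 4083 and 3775 in dense and 3107 and 3236 in sparse cultures between lines. With day as a replicate block the counts were 29 and 6 in dense and 7 and 15 in sparse cultures between lines, 3 and 1 for KO density, 4 and 35 for rescue density and 31 and 1 for the interaction. Beside the calls given with the results, it changed no other call. Leaving out each array in turn gave 27 to 31 higher and 6 lower in dense cultures, 6 to 8 and 12 to 16 in sparse cultures, 0 to 4 and 0 to 2 for KO density, 1 to 4 and 31 to 36 for rescue density and 24 to 30 and 1 to 2 for the interaction.

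The deposited value table as labelled gave 0 calls by limma in all 5 comparisons, with 1 gene at an unadjusted p under 0.05 for KO density, 2 for rescue density and 0 in the other 3, and an interaction of -0.10 for Stc2. Its day 3 columns follow the scanner files of the other line. Without day 3, an alternative chosen after seeing the data, it gave 28 higher and 6 lower in dense and 7 and 10 in sparse cultures, 4 and 1 for KO density, 3 and 23 for rescue density and 17 and 1 for the interaction. Over all 12421 genes these counts were 3328 and 3526 in dense and 2262 and 2864 in sparse cultures. They were 564 and 249 for KO density, 1995 and 1691 for rescue density and 835 and 587 for the interaction. Over the 22 genes with per-array values, 142 of 2615 values under the alternatives lost the threshold and 57 gained it. Another 19 turned sign where the main fit or the alternative made a call, and sign changes without a call in either were not counted. Of the differences within the shared slide, which have no test, 24 moved by more than the spread between replicates. Signal over background limits Cth, Cbs, Slc7a11, Stc2 and Fgf21, each below background on at least 1 array of a group.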

Other observations

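In the authors' deposited value table, the 4 columns of day 3 correlated with the scanner files of their own cultures at r = 0.835 (dense KO), 0.869 (sparse KO), 0.833 (dense rescue) and 0.874 (sparse rescue) over 27609 probes. They correlated with the other line's file of the same seeding and day at r = 0.972, 0.983, 0.984 and 0.982 in that order. The other 8 columns correlated with their own files at 0.980 to 0.987. The scanner files of day 3 were used as labelled, and their replicate correlations with days 1 and 2 were within 0.982 to 0.992.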
